A study of Mus musculus with 6 samples.

Results

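The genes described here are 41 markers of lymphocytes and immune checkpoints, chosen by symbol from the 18238 genes of a count table from mice with lung cancer. They comprise 14 T cell genes, 8 genes of cytotoxic and natural killer (NK) cells, 6 B cell genes and 13 checkpoint and costimulation genes. All 41 were found in the table and all 41 passed the filter on low counts. RNA was sequenced from 3 mice treated with artemisinin, an antimalarial sesquiterpene lactone from Artemisia annua, and from 3 mice described only as the model, and both groups carried lung cancer. The sources used here did not give the tissue taken, the tumour model, the strain, the sex, the age, the dose or the time of collection. The libraries are called artemisinin mouse 1 to 3 and model mouse 1 to 3, and each library was read as 1 animal because the series' design speaks of mice.

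T cells recognise antigen through a receptor whose signal is carried by the CD3 chains and the kinases LCK and ZAP-70, with CD4 or CD8 as coreceptor. Cytotoxic T cells and NK cells kill targets with perforin and granzymes, and B cells signal through the CD79 chains of their antigen receptor. Checkpoint receptors such as PD-1 and CTLA-4 restrain T cells when they meet ligands on antigen-presenting or tumour cells, and this restraint is a target of cancer immunotherapy. In lung, lymphocytes are found in the alveolar walls, around airways and in lymphoid aggregates.

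None of the 41 genes passed edgeR's quasi-likelihood test of artemisinin against model mice (threshold 0.05 after Benjamini-Hochberg adjustment), which called 4.47% of 15242 genes. DESeq2 called 2 members higher (Cd86 and Eomes) and 0 lower, where it called 7.70% of all genes higher and 6.37% lower. The estimates leaned 1 way, with 38 of 41 log2 fold changes (artemisinin over model) above 0, or 92.7% against 53.2% of all genes tested. Their median was 0.53, against 0.04 over all genes. At an unadjusted p under 0.05, 12 members were higher and 0 lower, a share of 29.3% against 13.7% of all genes for higher values. That count of 12 was 2 without artemisinin mouse 3 or without model mouse 1, 4 without model mouse 3, 6 without artemisinin mouse 1, 7 without model mouse 2, and 16 (with 1 lower) without artemisinin mouse 2. Of the 41 estimates, 28 were above 0 without artemisinin mouse 3. In 8 members (19.5%) the 3 artemisinin values all lay above the 3 model values, against 16.3% of all genes, and in 0 members did they all lie below, against 17.3%. The members are measured in the same 6 mice, so their signs are not independent of each other. The 95% intervals were wide, and those of 35 members included a rise of 2-fold.

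Levels are given as normalised CPM (CPM after TMM scaling of the library totals), for n = 3 mice per group in the order 1, 2 and 3, and a value after ± is the SE of the log2 fold change. The libraries held 25566173 to 34745497 counts, and the least abundant member in any library, Pdcd1, still had 18 counts. Gene expression varied more among the artemisinin mice than among the model mice, with a biological coefficient of variation of 0.389 against 0.211. The labels give lung cancer as the cell type, and alveolar type 2 markers were present in every library, summing to 49301 to 73484 normalised CPM in the model and 6689.6 to 20949.7 with artemisinin. Other cell types also differed between the libraries. Summed over 6 skeletal muscle markers, artemisinin mouse 2 stood at 5124 normalised CPM and the highest model library at 5.06. The 6 of 13 neutrophil markers that passed the test rose, the 6 of 10 alveolar type 2 markers that passed it fell, and all 6 smooth muscle markers rose. The part of these shifts in the values below was not tested. In bulk RNA, fewer cells of a type and less RNA per cell cannot be told apart.

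**Figure D1:**
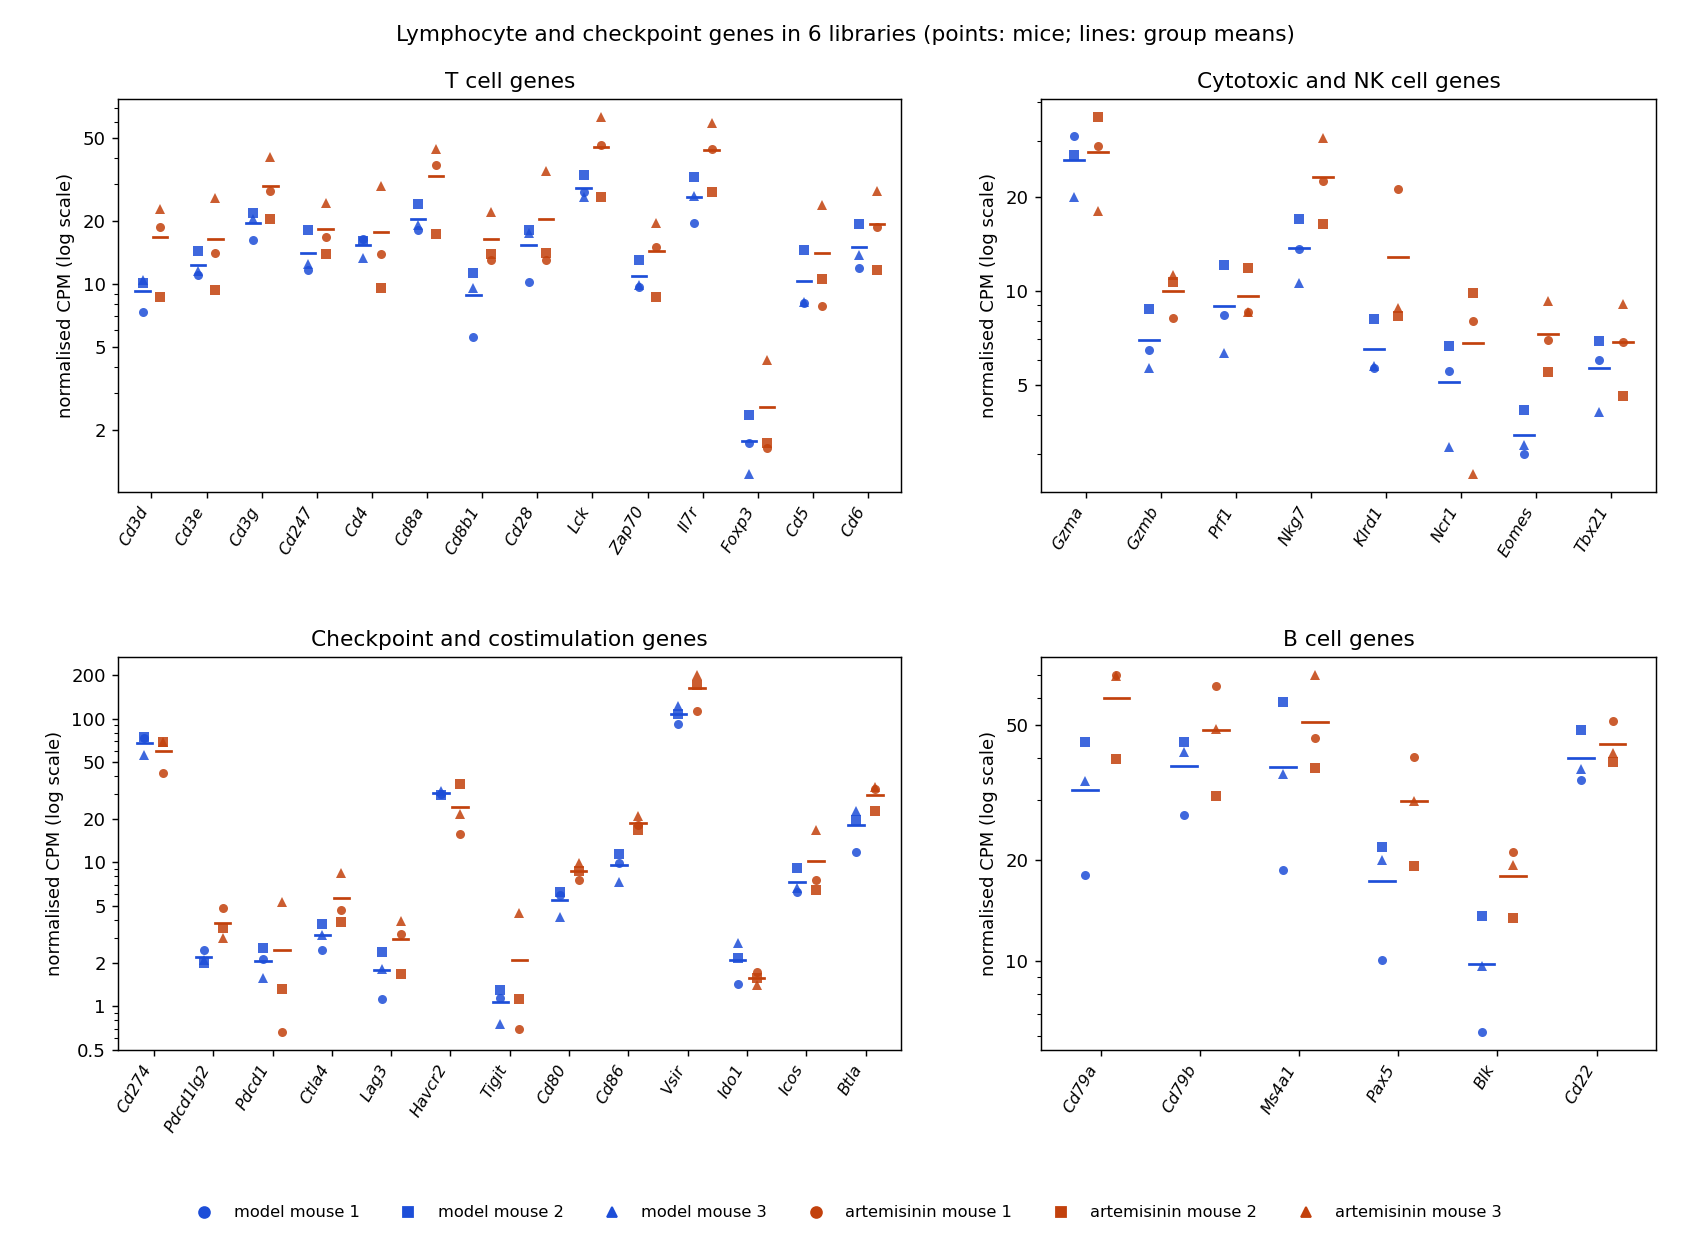
Normalised CPM (log axis) of the 41 genes in each library, in 4 panels by subgroup, with model mice in blue, artemisinin mice in orange, symbols for the mouse number within a group and short lines for group means. Artemisinin mouse 3 is the highest library for all 14 T cell genes, and model mouse 1 is the lowest for all 6 B cell genes.

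All 14 T cell genes had estimates above 0, none passed the test, and artemisinin mouse 3 was the highest library for every one of them. Their median log2 fold change was 0.50, with a range of 0.22 to 0.90 and adjusted p-values from 0.157 to 0.753 (edgeR). Of the 14, 3 were higher at an unadjusted p under 0.05, against 13.7% of all genes. In 1 of the 14, Cd8b1, the groups did not overlap, where 16.3% of all genes were higher without overlap. Without artemisinin mouse 3 the median was 0.09, and 6 of the 14 estimates were below 0. As a mean over the 14 genes on the log2 scale, relative to the model mean, artemisinin mice 1, 2 and 3 stood at 0.36, −0.08 and 1.08. The model mice stood at −0.23, 0.28 and −0.05, so artemisinin mouse 2 lay within the model range and artemisinin mouse 1 just above it. A peak in artemisinin mouse 3 was not particular to T cell genes. That library was also highest for 12 of 13 neutrophil markers, 6 of 7 endothelial markers and 83 of the 149 related genes described below. It was highest for 0 of 10 alveolar type 2 markers and 0 of 6 smooth muscle markers.

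Cd3e, which encodes the epsilon chain of the CD3 complex, had 14.1, 9.33 and 25.9 normalised CPM in artemisinin mice 1, 2 and 3 and 11, 14.4 and 11.6 in the model mice. Only artemisinin mouse 3 lay above the model range, and artemisinin mouse 2 lay below it. The log2 fold change was 0.41 ± 0.37 (SE), with a 95% interval of −0.44 to 1.27 and an adjusted p of 0.503, and it was −0.11 without artemisinin mouse 3. The neighbouring gene Cd3d, for the delta chain, had 18.7, 8.70 and 23.0 with artemisinin and 7.35, 10.1 and 10.4 in the model. There artemisinin mice 1 and 3 were both above all model mice (log2 0.86 ± 0.36, SE, adjusted p = 0.199). Cd3g, for the gamma chain, had 27.8, 20.4 and 40.5 against 16.2, 21.9 and 20.5 (0.60 ± 0.27, adjusted p = 0.218). The 3 genes lie together on chromosome 9, with 1337 bases between Cd3g and Cd3d and 11682 between Cd3d and Cd3e, and they shared the order of the artemisinin mice. Cd247, for the zeta chain, gave a log2 fold change of 0.39 ± 0.28.

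The coreceptor genes differed in their estimates. Cd4, the coreceptor of helper and regulatory T cells, had 13.9, 9.61 and 29.6 normalised CPM with artemisinin and 16.4, 16.1 and 13.3 in the model, with a log2 fold change of 0.22 ± 0.39 (SE, adjusted p = 0.753). Without artemisinin mouse 3 it was −0.41. Cd8a, for the alpha chain of the cytotoxic T cell coreceptor, had 37.0, 17.4 and 44.2 with artemisinin and 18.1, 24.1 and 19.1 in the model (0.69 ± 0.33, adjusted p = 0.247). Cd8b1, for its beta chain, had 13.1, 14 and 22.2 with artemisinin and 5.59, 11.3 and 9.55 in the model, and was the T cell gene with the smallest p. Its groups did not overlap (0.90 ± 0.33, 95% interval 0.12 to 1.67, adjusted p = 0.157). The ratio of Cd8a to Cd4 was 2.66, 1.81 and 1.49 with artemisinin and 1.1, 1.5 and 1.43 in the model. These ratios overlapped, since artemisinin mouse 3 lay just below model mouse 2.

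Foxp3, the transcription factor gene of regulatory T cells, was the least abundant T cell gene, with 39 to 151 counts per library. It stood at 1.63, 1.73 and 4.32 normalised CPM with artemisinin and at 1.73, 2.35 and 1.23 in the model. Only artemisinin mouse 3 lay outside the model range, and the log2 fold change of 0.53 ± 0.53 (SE, adjusted p = 0.555) was −0.11 without it. Relative to Cd4 the ratios of Foxp3 were 0.117, 0.180 and 0.146 with artemisinin and 0.106, 0.146 and 0.0922 in the model, and these overlapped.

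The signalling and survival genes were likewise highest in artemisinin mouse 3. Il7r, the receptor for the survival cytokine IL-7, had 44.2, 27.7 and 59.1 normalised CPM with artemisinin and 19.6, 32.5 and 26.3 in the model (log2 0.74 ± 0.30, SE, adjusted p = 0.188). Lck, the kinase that starts signalling at the T cell receptor, had 46.3, 26.2 and 63.4 against 27.5, 33.2 and 26 (0.65 ± 0.30, adjusted p = 0.236). For both genes artemisinin mice 1 and 3 were above all model mice and artemisinin mouse 2 was inside the model range. Zap70, the next kinase in the chain, gave 0.41 ± 0.31, and the costimulatory receptor gene Cd28 gave 0.44 ± 0.42. Cd5 and Cd6, which encode scavenger-receptor family proteins of the T cell surface, gave 0.46 ± 0.45 and 0.37 ± 0.34. The estimates of Cd28, Cd5 and Cd6 were −0.21, −0.19 and −0.02 without artemisinin mouse 3. Without artemisinin mouse 2, the library with the skeletal muscle transcripts, edgeR called Cd3d, Cd8a and Lck higher (log2 1.17, 0.99 and 0.92, adjusted p = 0.0353, 0.0304 and 0.0394), where 4.34% of all genes were called higher.

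**Figure D2:**
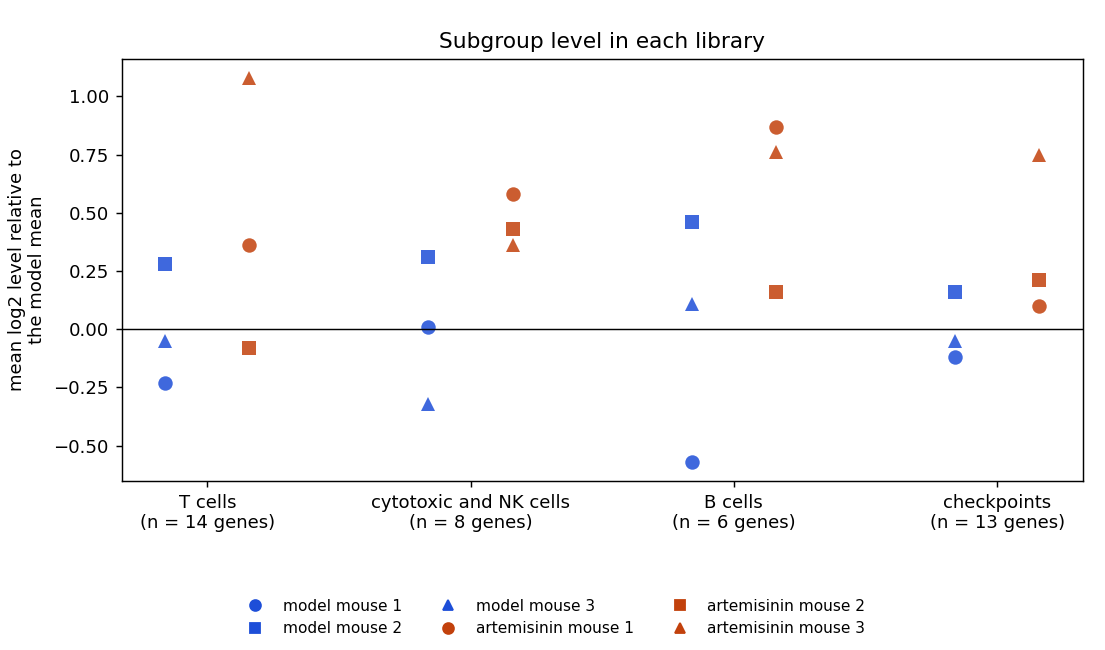
Mean log2 level of each subgroup in each library, relative to the mean of the 3 model mice (vertical axis, log2 units of normalised CPM plus 0.5), with model mice in blue and artemisinin mice in orange. For T cell genes artemisinin mouse 3 stands at 1.08 and artemisinin mouse 2 at −0.08, below model mouse 2 at 0.28, while for cytotoxic and NK cell genes the 3 artemisinin mice lie between 0.36 and 0.58.

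The 250 bases before a RefSeq transcription start were read for members with an entry in the promoter table (29 of 41 genes, GRCm38.p6). Among windows with ETS or T-box letters, that start lay inside the gene's own span for Cd3e, Cd247, Il7r, Prf1 and the Lck window not shown. The ETS letters of Cd3e, Cd247 and Il7r thus lay within the gene's span. Both strands were searched for 5 motifs, written here on 1 strand. These were the octamer ATGCAAAT, the T-box site AGGTGTGA, the RUNX site TGTGGTT, the ETS site CAGGAAGT and the STAT site TTCNNNGAA. Of 10 T cell genes with an entry, 4 held the ETS letters (Cd3e, Cd247, Lck and Il7r), where 3.13% of 27025 genes with an entry did. The STAT letters were in 3 of the 10 (8.13% of all genes) and the RUNX letters in 1 (5.08%). The octamer was in 0 member windows of any subgroup, against 1.81% of all genes. A match describes letters in a window and no more. Shown 5′ to 3′ on the gene's strand are Cd3e (chr9:45009612-45009861, minus strand), the first of 2 Lck windows (chr4:129573642-129573891, minus strand) and Il7r (chr15:9529877-9530126, minus strand). Capitals mark the ETS letters in either orientation, and also a RUNX match in Lck and a STAT match in Il7r. No matches overlapped.
Cd3e: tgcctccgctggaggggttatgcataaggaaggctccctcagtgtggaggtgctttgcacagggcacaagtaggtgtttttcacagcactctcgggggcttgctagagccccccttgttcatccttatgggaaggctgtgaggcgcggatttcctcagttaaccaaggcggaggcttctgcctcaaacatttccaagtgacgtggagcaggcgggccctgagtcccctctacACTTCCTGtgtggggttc
Lck: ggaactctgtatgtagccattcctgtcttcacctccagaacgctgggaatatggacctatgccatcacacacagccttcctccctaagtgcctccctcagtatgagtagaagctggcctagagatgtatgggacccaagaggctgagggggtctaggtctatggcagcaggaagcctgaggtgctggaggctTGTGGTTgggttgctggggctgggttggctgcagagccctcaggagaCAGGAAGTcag
Il7r: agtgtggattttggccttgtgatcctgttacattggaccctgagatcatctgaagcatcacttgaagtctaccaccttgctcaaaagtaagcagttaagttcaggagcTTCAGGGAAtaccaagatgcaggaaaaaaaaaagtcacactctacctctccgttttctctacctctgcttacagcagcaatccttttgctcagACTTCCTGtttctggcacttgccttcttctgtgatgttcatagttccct

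The estimates of the cytotoxic and NK cell genes ran from 0.09 for granzyme A to 1.07 for Eomes. All 8 were above 0, with a median log2 fold change of 0.47, and 0 of 8 were called. At an unadjusted p under 0.05, 3 of 8 were higher, against 13.7% of all genes. The median was 0.28 without model mouse 3. Gzma, for granzyme A, had 29.0, 36.0 and 18.0 normalised CPM with artemisinin and 31.2, 27.1 and 19.9 in the model. Prf1, for the pore-forming protein perforin, had 8.57, 11.8 and 8.56 against 8.35, 12.1 and 6.33. The groups overlapped for both genes, with log2 fold changes of 0.09 ± 0.28 and 0.11 ± 0.30 (SE). Their 95% intervals of −0.58 to 0.75 and −0.59 to 0.81 exclude a 2-fold change in either direction. The estimates were −0.15 and −0.06 without artemisinin mouse 2, and −0.08 and −0.09 without model mouse 3. Gzmb, for granzyme B, had 8.20, 10.7 and 11.2 with artemisinin and 6.47, 8.74 and 5.67 in the model (0.53 ± 0.26, adjusted p = 0.257). The ratio of Gzmb to Cd3e was 0.581, 1.15 and 0.431 with artemisinin and 0.587, 0.606 and 0.489 in the model, which overlapped.

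Eomes, a T-box transcription factor gene of NK and memory CD8 T cells, had the largest log2 fold change of the 41 members. It had 6.95, 5.51 and 9.30 normalised CPM with artemisinin and 3.01, 4.17 and 3.21 in the model, and the groups did not overlap. The log2 fold change was 1.07 ± 0.32 (SE), with a 95% interval of 0.33 to 1.81 and an adjusted p of 0.104, and DESeq2 gave an adjusted p of 0.0173. Its relative Tbx21, for the T-bet factor, had overlapping groups and 0.28 ± 0.35, or −0.02 without artemisinin mouse 3. Klrd1, for the CD94 chain of NK receptors, had 21.2, 8.29 and 8.79 with artemisinin and 5.68, 8.15 and 5.77 in the model. Its groups were separated only narrowly, by artemisinin mouse 2 and model mouse 2, and artemisinin mouse 1 was far above the other 5 libraries (0.96 ± 0.41, adjusted p = 0.200). Nkg7, a cytotoxic granule membrane gene, had 22.4, 16.3 and 30.7 against 13.6, 17.0 and 10.6 (0.75 ± 0.28, adjusted p = 0.162). Ncr1, which encodes the NK receptor NKp46, was lowest of all libraries in artemisinin mouse 3 at 2.60, where the T cell genes were highest, and its groups overlapped (0.41 ± 0.52).

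Among 7 genes of this subgroup with a promoter entry, the ETS letters were in Prf1 and Tbx21, the RUNX letters in Gzma, Gzmb and Ncr1, and the T-box letters in Nkg7 alone (1.30% of all genes). The 250 bases before the start are shown for Nkg7 (chr7:43436888-43437137, plus strand) and Prf1 (chr10:61297586-61297835, plus strand), as a granule membrane gene and a granule effector gene. Capitals mark the T-box letters and a STAT match in Nkg7 and 2 ETS matches in Prf1.
Nkg7: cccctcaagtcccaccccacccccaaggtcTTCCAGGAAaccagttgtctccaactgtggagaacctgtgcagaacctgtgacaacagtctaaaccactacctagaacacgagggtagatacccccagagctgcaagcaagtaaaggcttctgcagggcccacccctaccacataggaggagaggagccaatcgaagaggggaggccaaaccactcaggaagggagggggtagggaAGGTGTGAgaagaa
Prf1: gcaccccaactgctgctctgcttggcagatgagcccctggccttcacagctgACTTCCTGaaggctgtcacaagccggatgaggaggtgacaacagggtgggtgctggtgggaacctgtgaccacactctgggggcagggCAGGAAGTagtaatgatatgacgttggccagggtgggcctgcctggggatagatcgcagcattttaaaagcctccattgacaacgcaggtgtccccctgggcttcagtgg

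The 6 B cell genes had estimates above 0, none was called, and model mouse 1 was the lowest library for all 6. Artemisinin mouse 1 was the highest library for 5 of them. At an unadjusted p under 0.05, 2 of 6 were higher, against 13.7% of all genes. Their median log2 fold change was 0.61. It was 0.33 without model mouse 1 and 0.92 without model mouse 2. As means relative to the model mean, artemisinin mice 1, 2 and 3 stood at 0.87, 0.16 and 0.76 and the model mice at −0.57, 0.46 and 0.11. Cd79a, for the alpha signalling chain of the B cell receptor, had 70.3, 39.6 and 69.7 normalised CPM with artemisinin and 18.0, 44.4 and 34.1 in the model. Artemisinin mice 1 and 3 were above all model mice, and artemisinin mouse 2 was below model mouse 2 (0.90 ± 0.36, SE, 95% interval 0.06 to 1.73, adjusted p = 0.181). Blk, a Src family kinase gene of B cells, showed the same arrangement, with 21.1, 13.4 and 19.3 against 6.19, 13.6 and 9.71 (0.87 ± 0.32, adjusted p = 0.161).

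Ms4a1, which encodes the B cell surface protein CD20, spanned much of the same range in both groups, with 45.6, 37.3 and 70.4 normalised CPM with artemisinin and 18.6, 58.4 and 35.8 in the model (log2 0.44 ± 0.41, SE, adjusted p = 0.528). Pax5, the transcription factor gene that fixes B cell identity, had 40.3, 19.2 and 29.7 against 10.1, 21.8 and 20.0 (0.78 ± 0.36, adjusted p = 0.233). Cd79b, for the beta signalling chain, had 65.1, 30.9 and 48.8 against 27.1, 44.4 and 41.5 (0.36 ± 0.30, adjusted p = 0.482). For both genes artemisinin mouse 2 lay inside the model range. Cd22, an inhibitory receptor gene of B cells, had the narrowest interval of the subgroup, 51.3, 38.8 and 41.4 against 34.4, 48.3 and 37.1 (0.13 ± 0.18, 95% interval −0.29 to 0.56), which excludes a 2-fold change. The ratio of Cd79a to Cd3e was 4.98, 4.25 and 2.69 with artemisinin and 1.63, 3.08 and 2.94 in the model, so B cell against T cell transcripts overlapped between the groups. Of the 3 B cell genes with a promoter entry, Cd79a alone held the ETS letters, shown in capitals in its 250 bases (chr7:24897247-24897496, plus strand).
Cd79a: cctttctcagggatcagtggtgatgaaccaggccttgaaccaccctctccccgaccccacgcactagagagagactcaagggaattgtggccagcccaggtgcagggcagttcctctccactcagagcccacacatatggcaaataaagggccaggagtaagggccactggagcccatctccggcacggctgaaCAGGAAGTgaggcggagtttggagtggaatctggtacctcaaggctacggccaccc

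The 13 checkpoint and costimulation genes had the only estimates below 0, for Cd274, Havcr2 and Ido1. The other 10 were above 0, the median log2 fold change was 0.67, and 0 of 13 were called by edgeR, with 4 at an unadjusted p under 0.05. Over all genes 13.7% were higher at that unadjusted level. In 5 of the 13 the groups did not overlap, all 5 higher with artemisinin: Cd86, Cd80, Ctla4, Pdcd1lg2 and Btla. Over all genes 16.3% were higher and 17.3% lower without overlap. Without artemisinin mouse 3 the median was 0.36.

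CD80 and CD86 are the ligands of CD28 and CTLA-4 on antigen-presenting cells. Cd86 had 18.3, 16.8 and 21.0 normalised CPM with artemisinin and 9.93, 11.5 and 7.28 in the model, so each artemisinin mouse stood well above each model mouse. Its log2 fold change of 0.96 ± 0.22 (SE, 95% interval 0.44 to 1.49) had the smallest adjusted p of the 41 members, 0.0583 in edgeR. DESeq2 gave 0.0028. EdgeR with library totals gave 0.0481 and called 3.04% of all genes higher. On the authors' FPKM limma gave 0.0460 with a pseudocount of 0.1 (2.61% of genes called higher) and 0.0469 with 1 (2.31%). When any 1 library was left out the adjusted p lay between 0.0523 and 0.206. Cd80, the other B7 ligand gene, had 7.54, 8.70 and 9.99 against 5.98, 6.27 and 4.19 (0.67 ± 0.27, adjusted p = 0.181). Both genes are expressed by myeloid as well as B cells. Among 12 dendritic cell markers edgeR called 0, with a median of 0.40 and summed levels of 314 to 355 normalised CPM with artemisinin against 278 to 308 in the model. Clec9a, Batf3, Flt3 and Cd83 had an unadjusted p under 0.05 and were higher without overlap, 1.86-, 2.27-, 1.74- and 1.31-fold (adjusted p = 0.0865, 0.138, 0.159 and 0.169). Over all genes 13.7% were higher at an unadjusted p under 0.05 and 16.3% were higher without overlap. Of the 12 markers 9 had estimates above 0. Siglech, H2-DMb2 and Fscn1 were below 0 (−0.35, −0.25 and −0.09), and Itgax gave 0.03. Of 14 monocyte and macrophage markers edgeR called Ccr2, Cx3cr1 and Csf1r higher and Marco lower, where it called 2.17% of all genes higher and 2.30% lower. Of the 14 estimates 9 were above 0 and 5 below, with a median of 0.28. Lyz2 was lower without overlap but not called (−1.60 ± 0.41, adjusted p = 0.0733), and Adgre1 and Cd68 gave 0.04 and −0.04. The part of dendritic cells, monocytes and macrophages in the Cd86 and Cd80 values was not tested.

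On the T cell side of that pair, Ctla4, the inhibitory receptor gene, had 4.66, 3.88 and 8.47 normalised CPM with artemisinin and 2.46, 3.71 and 3.15 in the model (0.87 ± 0.39, adjusted p = 0.225). Artemisinin mouse 2 was only just above model mouse 2. Icos, for an inducible costimulator, had 7.54, 6.49 and 16.9 against 6.25, 9.11 and 6.65, and overlapped (0.49 ± 0.40, or −0.10 without artemisinin mouse 3). Cd28, Ctla4 and Icos lie within 1 cluster on chromosome 1, with 135665 bases between Cd28 and Ctla4 and 44940 between Ctla4 and Icos. All 3 were highest in artemisinin mouse 3.

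The PD-1 axis showed no shared direction. Cd274, which encodes the ligand PD-L1, had 42.1, 69.1 and 68.9 normalised CPM with artemisinin and 73.3, 74.6 and 56.1 in the model. Only artemisinin mouse 1 lay below the model range, and the log2 fold change of −0.18 ± 0.22 (SE, 95% interval −0.70 to 0.34, adjusted p = 0.638) was 0.02 without that mouse. Its neighbour Pdcd1lg2, for PD-L2, lies 22823 bases away on chromosome 19 and had 4.8, 3.53 and 3.01 against 2.46, 2.01 and 2.11. Those groups did not overlap (0.78 ± 0.35, 95% interval −0.04 to 1.61, adjusted p = 0.222). Pdcd1, for the receptor PD-1 itself, had 0.665, 1.32 and 5.35 with artemisinin and 2.13, 2.53 and 1.58 in the model. Artemisinin mice 1 and 2 were below all model mice and artemisinin mouse 3 above them. Its log2 fold change was 0.24 ± 0.75 and −1.10 without artemisinin mouse 3, where neither was called. The ratio of Pdcd1 to Cd3e was 0.0471, 0.142 and 0.207 with artemisinin and 0.193, 0.176 and 0.136 in the model.

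Tigit, an inhibitory receptor gene of T and NK cells, was, like Pdcd1, lowest in artemisinin mouse 1 and highest in artemisinin mouse 3, with 0.702, 1.13 and 4.44 normalised CPM with artemisinin against 1.15, 1.30 and 0.756 (0.97 ± 0.74, adjusted p = 0.439). Without artemisinin mouse 3 its log2 fold change was −0.26. Lag3, an inhibitory receptor gene that lies beside Cd4 on chromosome 6 with 16111 bases between them, had 3.18, 1.67 and 3.92 against 1.12, 2.38 and 1.83 (0.72 ± 0.49, adjusted p = 0.392). Btla, an inhibitory receptor gene of B and T cells, had 32.3, 22.7 and 33.7 against 11.8, 19.7 and 22.7. The lowest artemisinin and the highest model value were the same when rounded (0.71 ± 0.28, adjusted p = 0.174).

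Vsir, Havcr2 and Ido1 are largely genes of myeloid and other non-T cells. Vsir, for the inhibitory receptor VISTA, was the most abundant member in CPM, with 113, 172 and 202 against 92.2, 108 and 123. Artemisinin mice 2 and 3 were above all model mice (0.59 ± 0.23, 95% interval 0.04 to 1.14, adjusted p = 0.179). Havcr2, for TIM-3, had 15.9, 34.9 and 21.9 with artemisinin and a narrow 29.7, 29.6 and 31.6 in the model (−0.32 ± 0.27, adjusted p = 0.491). Ido1, for an enzyme of tryptophan breakdown induced by interferon gamma, was low in every library, at 1.74, 1.58 and 1.40 against 1.43, 2.16 and 2.74 (−0.42 ± 0.43, adjusted p = 0.557).

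**Figure D3:**
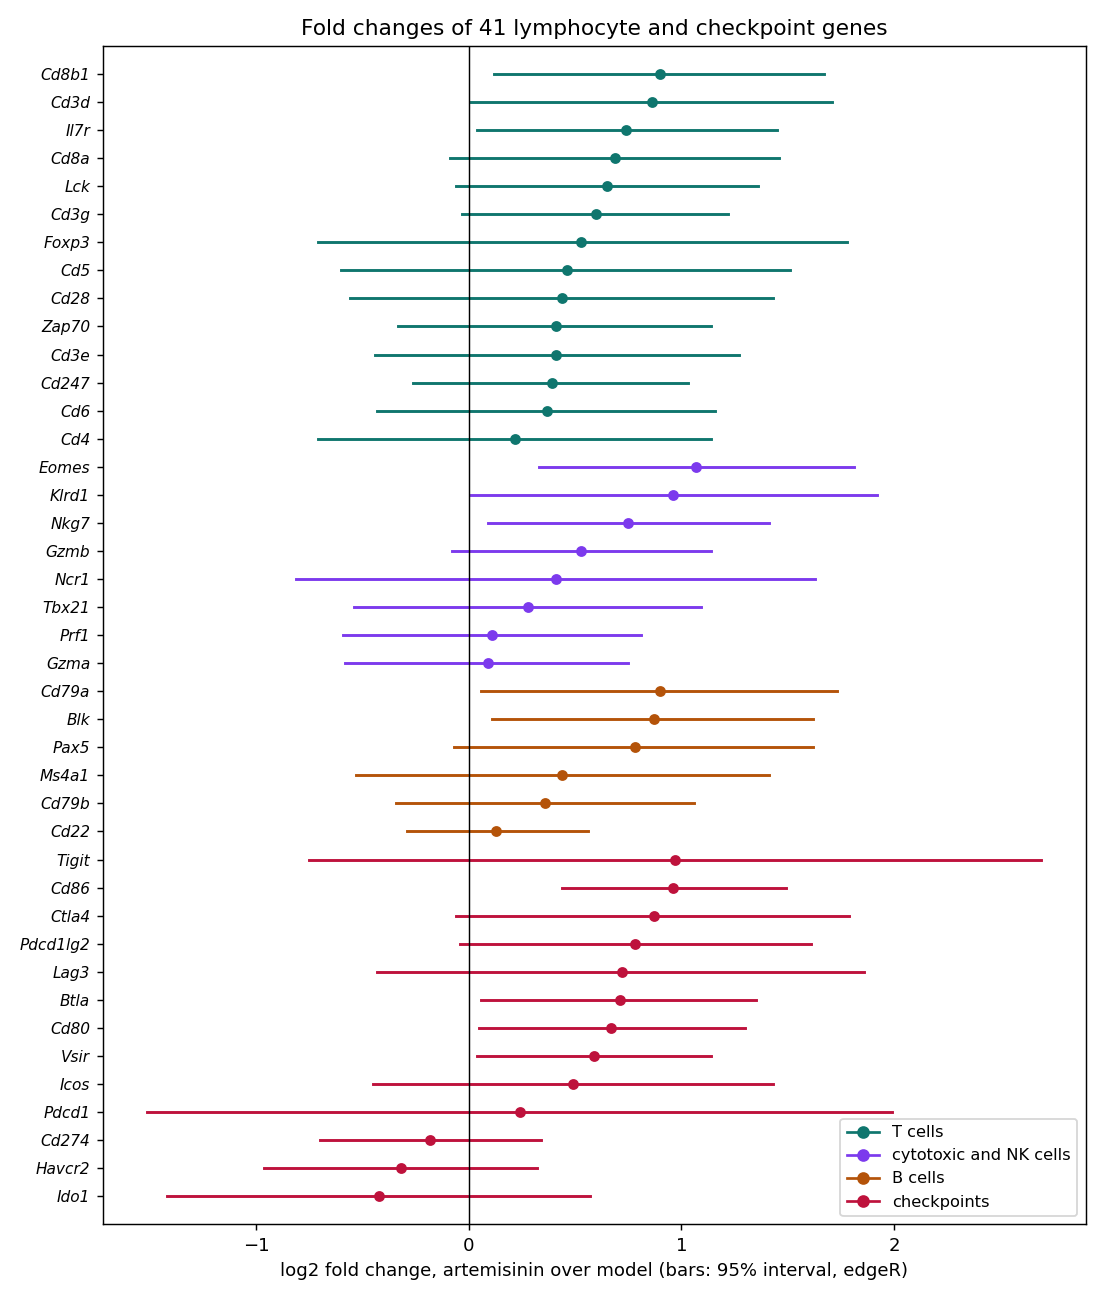
Log2 fold changes (artemisinin over model, horizontal axis) of the 41 genes with 95% intervals from edgeR, coloured by subgroup and ordered by size within it. All but 3 points lie right of 0, the Cd86 interval of 0.44 to 1.49 is clear of 0, and the Pdcd1 and Tigit intervals are the widest.

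On a scale per gene length, the authors' FPKM, the most abundant members in the model were Cd79a at 31.1, Cd79b at 29.6, Gzma at 28.5 and Vsir at 21.4 (means of 3 mice). The least abundant were Foxp3 at 0.435, Tigit at 0.483 and Pdcd1lg2 at 0.618. The coefficient of variation was larger among the artemisinin mice than among the model mice for 13 of 14 T cell genes, with medians of 42.1% and 21.3%. This held for 6 of 8 cytotoxic and NK cell genes (32% and 23%), 9 of 13 checkpoint genes (28.1% and 21.1%) and 1 of 6 B cell genes (31.5% and 37.1%). Over all genes tested it held for 11427 of 15242 (22.8% and 11.8%), and differences between the subgroups in spread were not tested. Overlapping genes in the table could share reads with 6 members, since the strand setting of the counting was not given in the sources used here. These pairs were Cd247 with Pou2f1, Foxp3 with Ccdc22, Gzma with Cdc20b, Cd274 with Plgrkt, Tigit with Zbtb20, and Vsir with Cdh23 and Gm17455.

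Ptprc, the CD45 gene of all leukocytes, had 433, 425 and 486 normalised CPM with artemisinin and 268, 296 and 284 in the model, with no overlap (log2 0.66 ± 0.15, SE, adjusted p = 0.0543). Of the 41 members, 17 had a log2 fold change above that of Ptprc. Ptprc was 1 of 3 markers of all leukocytes that were read. The others were Coro1a, which edgeR called higher (1.20 ± 0.22, adjusted p = 0.0312), and Laptm5, whose groups overlapped (0.37 ± 0.20, adjusted p = 0.286). The Coro1a estimate was above that of every member, so the count of 17 depends on the leukocyte gene chosen. The ratio of Cd3e to Ptprc was 0.0326, 0.0220 and 0.0532 with artemisinin and 0.0411, 0.0487 and 0.0409 in the model. Artemisinin mice 1 and 2 were thus below the model range and artemisinin mouse 3 above it. The ratio of Cd79a to Ptprc was 0.162, 0.0933 and 0.143 against 0.0671, 0.150 and 0.120, and overlapped. Of the markers of thymocytes, Rag1, Rag2 and Dntt had at most 16 counts in any library. Cd1d1 and Ccr9, the tested genes of that list, had overlapping groups and gave −0.64 ± 0.52 and −0.14 ± 0.38. Of 9 markers of lymph node stroma and high endothelial venules 6 were tested and 0 called by edgeR, with 0 at an unadjusted p under 0.05, 3 estimates above 0, 3 below and a median of 0.01. Their summed level was 85.7, 91 and 72.1 normalised CPM with artemisinin and 84.1, 123.0 and 103.0 in the model. Within this list Glycam1, which was not tested, had 210 counts in artemisinin mouse 1 and at most 12 in the others, while Ccl21a had 43.4, 71.0 and 30.6 normalised CPM against 53.0, 92.2 and 65.8. Both were singled out after their values were seen. The part of lymphoid tissue in the B cell values was not tested.

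Around the members, 149 further genes of the same pathways were read from the same fit, of which 144 were tested. Of these 6 rose and 3 fell, against 2.17% and 2.30% of all genes. The lists were read by these counts alone, with no test of a list. Among 27 further T cell genes 3 rose and 0 fell, with a median log2 fold change of 0.48. Fyb, an adaptor gene of T cells, myeloid cells and platelets, had 152, 86.7 and 107 normalised CPM with artemisinin and 46.0, 51.8 and 44.9 in the model, a 2.42-fold rise (adjusted p = 0.0270). Lcp2, for the adaptor SLP-76, rose 1.71-fold (adjusted p = 0.0412). Both genes are also expressed by myeloid cells. The neutrophil markers that passed the test rose, and monocyte and macrophage markers went both ways, as given above. The part of these cells in the Fyb and Lcp2 values was not tested.

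Among 23 tested cytotoxic and NK receptor genes 1 rose and 0 fell. Cd244a, for the receptor 2B4 of NK cells and some T and myeloid cells, had 28.7, 20.8 and 18.5 normalised CPM with artemisinin and 9.23, 9.23 and 9.17 in the model, a 2.46-fold rise (adjusted p = 0.0251). Tyrobp, for the signalling adaptor DAP12, came next with 1.5-fold and an adjusted p of 0.0761. Among 25 further B cell and plasma cell genes Tnfrsf13b, for the receptor TACI, rose 2.16-fold (31.9, 27.1 and 40.8 against 11.9, 19.5 and 14.8, adjusted p = 0.0487). Sdc1, for syndecan-1 of plasma cells and epithelia, had 161, 278 and 128 normalised CPM against 617, 434 and 481 and fell by 1.43 on the log2 scale (SE 0.31, adjusted p = 0.0496).

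Among 32 tested checkpoint partners and costimulatory genes 2 rose and 2 fell. Pvr, for CD155, a ligand of TIGIT, had 35.5, 28.0 and 32.6 normalised CPM with artemisinin and 58.4, 60.2 and 53.5 in the model. It fell by 0.84 on the log2 scale (SE 0.14, adjusted p = 0.0258), with no overlap. The related ligand gene Nectin2, for CD112, had 57.9, 68.7 and 39.5 against 136, 94.8 and 99.2 and missed the threshold (−0.99 ± 0.24, adjusted p = 0.0642). Tnfsf9, for the 4-1BB ligand, had 2.88, 5.42 and 4.27 against 25.7, 11.4 and 16 and fell by 2.08 on the log2 scale (SE 0.38, adjusted p = 0.0311). Lgals3, for galectin-3, a glycan-binding protein that is a ligand of LAG-3 and abundant in macrophages, rose 1.75-fold (adjusted p = 0.0326), and Cd244a, listed here too, is described above. Epithelial cells also express Pvr, Nectin2 and Sdc1. The alveolar type 2 markers that passed the test fell. All 5 club cell and all 6 ciliated cell markers had estimates above 0, with median log2 fold changes of 1.58 and 1.29, and 0 of either list were called by edgeR. The part of epithelial cells in these values was not tested.

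**Figure D4:**
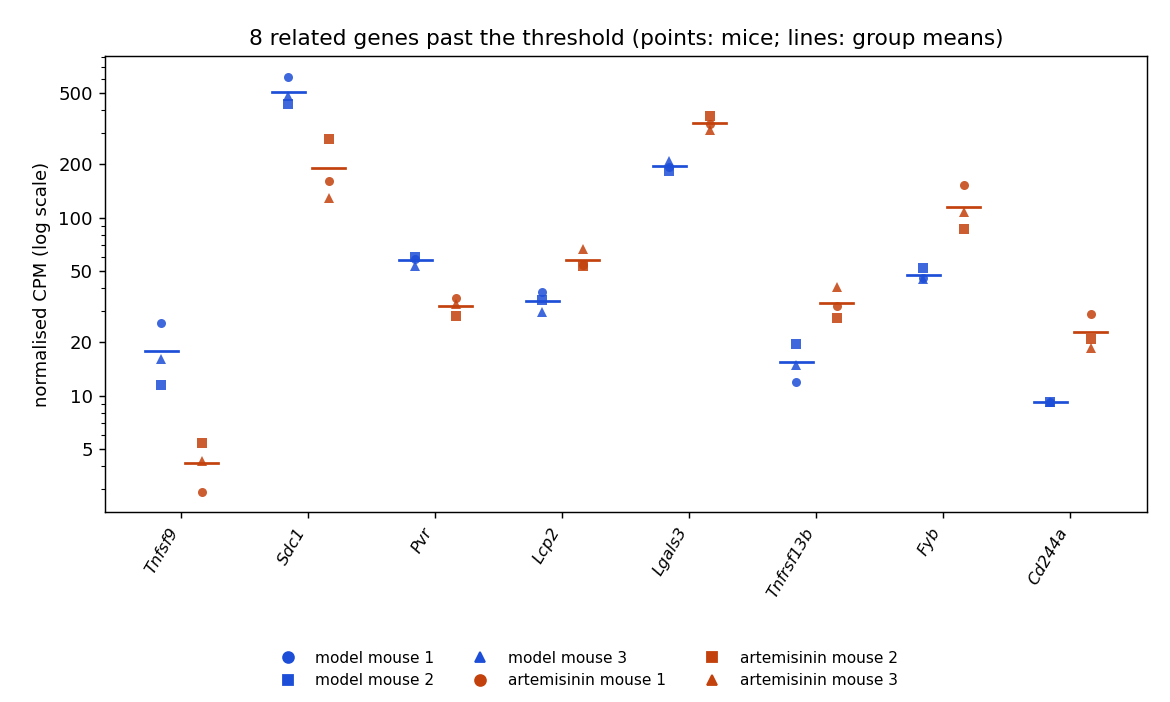
Normalised CPM (log axis) of 8 of the 9 related genes that passed the test, in each library, with model mice in blue, artemisinin mice in orange and short lines for group means. The groups do not overlap for any of the 8, as for 5121 of 15242 genes tested. The 8 were chosen by a test on these same values, so their separation adds nothing to that test. Tnfsf9, Sdc1 and Pvr are lower and the other 5 higher with artemisinin, and the 3 model points of Cd244a coincide near 9.2.

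The genes of the interferon gamma response and of lymphocyte chemokines gave 0 calls among 26 and 17 tested genes by edgeR, with medians of 0.02 and 0.40. At an unadjusted p under 0.05, 2 were higher and 2 lower in the first list and 2 were higher in the second. Ifngr1, a receptor chain for interferon gamma, had 219, 233 and 267 normalised CPM against 149, 161 and 153 (0.63 ± 0.14, SE, adjusted p = 0.0537). Irf8, an interferon regulatory factor gene, gave 0.56 ± 0.21 (adjusted p = 0.168). The 2 lower genes of this list were Gbp6 (−0.39 ± 0.15, adjusted p = 0.175) and Iigp1 (−0.71 ± 0.29, adjusted p = 0.189). Ccl17, a chemokine gene of dendritic cells that attracts T cells, had 7.98, 7.66 and 6.07 against 3.76, 3.58 and 1.89 (1.23 ± 0.35, adjusted p = 0.0949), and Cxcr4 gave 0.51 ± 0.16 (adjusted p = 0.114). Of the 9 related genes called, 0 were called without any 1 of the model mice. Without artemisinin mouse 3 only Cd244a was called, and without artemisinin mouse 2 edgeR called 14 related genes higher and 6 lower. Calls over all genes also increased without artemisinin mouse 2, where edgeR called 4.34% of all genes higher, against 2.17% in the main fit.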

How the data were processed

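Polyadenylated RNA of 6 mice was sequenced after a mirVana extraction and a TruSeq Stranded mRNA library, per the labels' protocols. The authors deposited raw read counts per gene, without normalization, and FPKM values, which scale those counts for gene length and sequencing depth. The genome build was GRCm38 (mm10), per the submitters' processing notes, with aligner, counter and annotation not given in the sources used here. Within each gene, the deposited FPKM were proportional to the counts (largest relative gap 9.1e-07 over 15612 genes), so they are not independent evidence. No column belonged to another sample.

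Counts were fitted over all genes with edgeR 4.0.16 in R 4.3.3, with filterByExpr (15242 genes kept), TMM factors, robust glmQLFit, glmQLFTest and Benjamini-Hochberg adjustment at 0.05. No p was adjusted over the members alone. Each SE was the log2 fold change over the square root of F, and 95% intervals used the fit's degrees of freedom. With 3 against 3 mice an exact permutation test cannot go below 0.1, so p-values rest on the spread shared across genes, and they measure the spread between these mice. DESeq2 1.42.0 and limma 3.58.1 (voom, or log2 of FPKM plus 0.1 or 1 with a mean FPKM of at least 0.5) were alternatives. On counts simulated for this comparison edgeR recovered 26% of 2-fold and 75% of 4-fold changes over 15114 genes, with 9.82% of its calls false. That simulation gave both groups the same spread, unlike these mice, and changed only a small set of genes, so its rates need not hold here.

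The members and lists were chosen with earlier results of these data known. Values in every library are given for the 4 smallest p of each subgroup and for a set named whatever its result. From the related lists the called genes, or the 2 with the smallest p, are named, except 1 called gene that is not reported here, and any others were chosen after their values were seen. Coordinates and promoter sequences come from RefSeq tables of GRCm38.p6, matched by Entrez number.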

Additional observations from a re-analysis of the deposited data

How the results depend on the processing

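The count of members called lower was 0 in all 16 alternatives. The count called higher, 0 in edgeR, was 1 with library totals and with limma on log2(FPKM + 0.1) or log2(FPKM + 1) (Cd86 each time), 2 with DESeq2 and 0 to 3 when 1 library was left out. With library totals 18 members were higher at an unadjusted p under 0.05, in place of 12, and the all-gene median was 0.15 in place of 0.04 (log2). Over all genes 331 rose and 351 fell in edgeR, 1251 and 1035 in DESeq2, and 6 to 670 and 11 to 713 when 1 library was left out. Of the related genes 6 rose and 3 fell, 19 and 6 in DESeq2, and 0 to 14 and 0 to 6 when 1 library was left out. The causes of these shifts were not tested, beyond the fewer mice when 1 was left out.

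The checkpoint median of 0.67 was 0.40 with limma on log2(FPKM + 1). When 1 library was left out the medians lay from 0.09 to 0.72 (T cells), 0.28 to 0.65 (cytotoxic and NK cells), 0.33 to 0.92 (B cells) and 0.36 to 0.74 (checkpoints). Sign changes occurred in 19 of 656 refits of members, in 13 of the 41 genes. With single libraries left out, log2 fold changes lay from −0.11 to 0.70 (Cd3e), −0.41 to 0.51 (Cd4), −0.21 to 0.68 (Cd28), −0.11 to 0.78 (Foxp3), −0.19 to 0.77 (Cd5), −0.02 to 0.63 (Cd6), −0.15 to 0.28 (Gzma), −0.09 to 0.36 (Prf1), −0.02 to 0.50 (Tbx21), −0.34 to 0.02 (Cd274), −1.10 to 0.68 (Pdcd1), −0.26 to 1.38 (Tigit) and −0.10 to 0.74 (Icos). Pdcd1 was also −0.19 with limma-voom, −0.18 with group weights and −0.12 with log2(FPKM + 0.1).

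The labels share only replicate numbers, and deviations of same-numbered mice correlated at −0.00395, −0.103 and 0.0303. In a fit with this number as a replicate block, 65 genes rose and 63 fell, 0 related genes and 0 members were called (smallest member adjusted p 0.132, 5 members higher at an unadjusted p under 0.05), Pdcd1 was −0.31, and the medians were 0.39, 0.41, 0.67 and 0.56 in the order above.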
